A study of Arabidopsis thaliana with 12 samples.

Results

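Shoots of untreated msh1 recA3 double mutants of Arabidopsis thaliana were compared with shoots of untreated wild-type plants, on 4 and 2 arrays, which were 6 of the 12 arrays of the study. The arrays were chosen by the genotype and treatment in their labels. The double mutant was labelled homozygous for both mutations (msh1/msh1-recA3/recA3) in the Col-0 background, and the wild type was Col-0; names of the mutant alleles and the number of plants per sample were not given in the sources used here. All plants were 8 weeks old and grew on soil at 24 °C, in 8-h days for 8 weeks and then in 16-h days. RNA came from the above-ground parts, and the labels number the samples of each genotype as biological replicates. The other 6 arrays held 3 heated double mutants and 3 heated wild types, grown alike and then kept at 37 °C, for 2 h by the design text and for about 24 h by the treatment protocol. They share no array with the untreated comparison and were used to ask which of its differences were seen again after heat.

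The nuclear genes MSH1 and RECA3 encode proteins guarding the DNA of organelles. MSH1, a relative of bacterial MutS, acts in mitochondria and plastids, RECA3 is a mitochondrial recombinase related to bacterial RecA, and both hold back recombination between short repeats of the mitochondrial genome. When plant mitochondria are disturbed, a retrograde signal raises a known set of nuclear genes, among them alternative oxidases and NAD(P)H dehydrogenases that bypass the proton-pumping respiratory complexes. No probe set of the array was annotated as MSH1 or RECA3, so the mutated genes were not analysed here.

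Values are log2 RMA signals (robust multi-array average) of 22746 probe sets. Of these, 13513 carried the name of 1 gene. The arrays of each genotype were not uniform. On the first principal component of the 6 untreated arrays, with 50.8% of their variance, double mutant replicates 3 and 4 scored 27.8 and 32.7 and double mutant replicates 1 and 2 scored -0.94 and 1.19, while the wild types scored -33.6 and -27.2. Set against the wild-type mean, 479 and 691 probe sets were higher by at least 1 in double mutant replicates 3 and 4, and 160 and 155 in replicates 1 and 2. The wild types themselves differed, with 204 probe sets higher by at least 1 in replicate 1 than in replicate 2 and 28 lower. Wild-type replicate 1 also had a mean hybridisation-spike signal of 7.08, against 8.20 to 8.98 in the other 5 untreated arrays. The 3' to 5' difference of the actin control was 3.37 to 3.56 in the double mutants and 2.92 to 3.10 in the wild types. The leaf genes RCA and LHCB4.1, the 2 of 9 leaf markers measured under a name, had log2 signals of 13.31 to 13.85 in the double mutants and 13.02 to 13.46 in the wild types.

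Most transcripts that differed were higher in the double mutant. By limma, at an adjusted p under 0.05 over all probe sets, 507 probe sets were higher (2.23% of those tested) and 106 were lower (0.466%), together 613 or 2.69%. Of the 613, 308 were assigned to 1 gene, 250 of them higher and 58 lower. In all 613 the values of the 2 genotypes did not overlap, so such separation adds nothing to a call. The median difference was 0.69 among those higher and -0.66 among those lower, on the log2 scale. A difference of at least 1 was reached by 134 higher and 25 lower probe sets (together 0.699%), and one of at least 2 by 23 and 1. Transcripts that were higher were mostly well expressed, with 466 of 507 above the median signal of all probe sets. Of the 106 lower ones 35 were. The upper quartile of signals was 7.23 to 7.27 in the untreated double mutants and 7.13 and 7.14 in the wild types. The lower quartile was 3.67 to 3.72 and 3.73 and 3.76. After quantile normalization, which gives all arrays the same quartiles, 165 of the 507 and 88 of the 106 were still called. The part of this offset in the pattern was not tested. In whole shoots, fewer cells of a type and less RNA per cell cannot be told apart.

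The number of calls depended on the arrays and on the scaling. With the arrays centred on 4 measured reference genes the median difference of all probe sets was -0.12, in place of 0.02, and 155 were higher and 346 lower, so the excess of higher transcripts turned round with this scaling. After quantile normalization 165 were higher and 110 lower. Without double mutant replicates 1 and 2 the calls numbered 1469, without replicates 3 and 4 they numbered 132, and without wild-type replicate 1 or 2 they numbered 113 and 140. A total of 60 probe sets, 54 higher and 6 lower, passed with the same sign under all 22 alternative fits in which they were tested, and 32 of these were assigned to 1 gene.

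**Figure D1:**
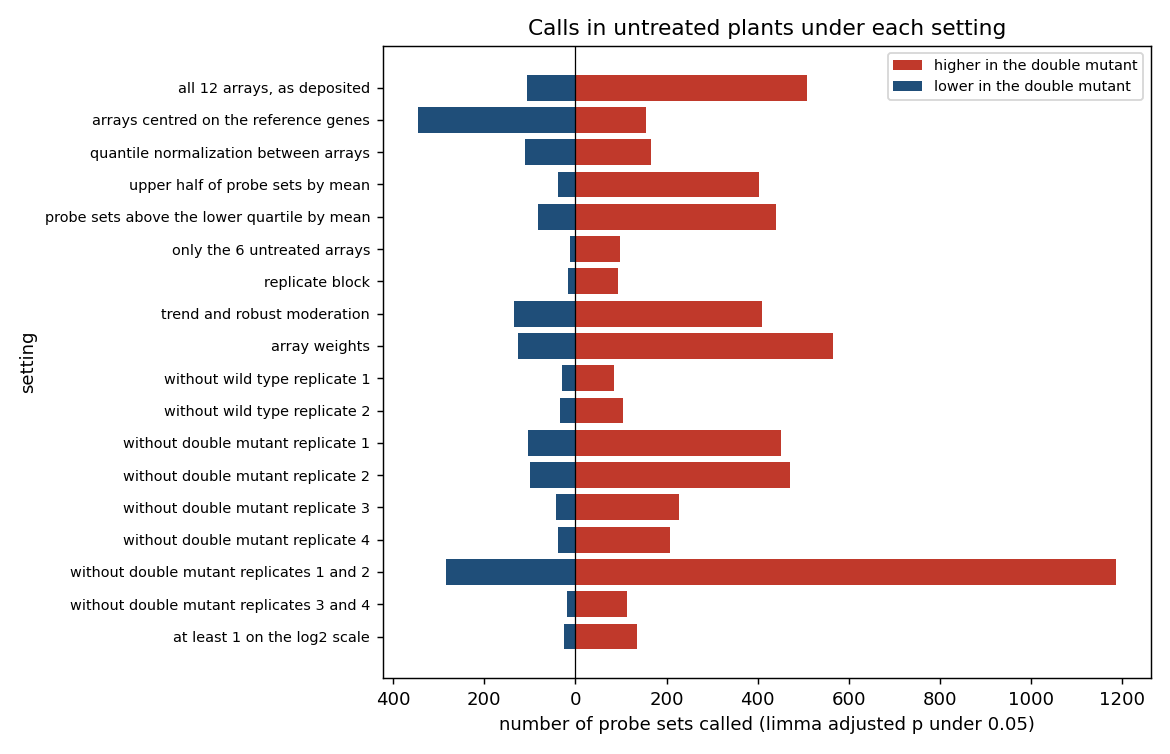
Numbers of probe sets called higher (right, red) and lower (left, blue) in untreated double mutants than in untreated wild types, for all 12 arrays as deposited and for each alternative on the vertical axis. The counts run from 109 for a fit of only the 6 untreated arrays to 1469 without double mutant replicates 1 and 2, and lower calls outnumber higher ones only after centring on the reference genes.

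Genes of the mitochondrial stress response held several of the largest rises. Of 27 listed genes of this response 10 were measured under a name, 5 rose (against 2.23% of all probe sets), none fell, and the median of the 10 was 0.93, against 0.02 for all probe sets; under the alternatives 4 or 5 rose. The leading member was AT5G09570 (AT12CYS-2), a small protein with twin CX9C motifs whose transcript is a classical marker of mitochondrial stress. Its log2 signals were 9.27, 9.29, 9.25 and 9.49 in the double mutants and 4.58 and 4.77 in the wild types. All 4 double mutants lay within 0.24 of each other and far above both wild types, a difference of 4.65 ± 0.14 (SE) (limma adjusted p = 4.47e-08), or 25.1-fold. Its sister AT5G64400 (AT12CYS-1) had signals of 11.28 to 11.38 in the double mutants and 11.12 and 11.14 in the wild types, a difference of 0.20 ± 0.09 (SE) that did not pass (adjusted p = 0.245).

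UPOX (AT2G21640), another marker of mitochondrial oxidative stress, had signals of 9.84, 9.85, 10.16 and 10.03 in the double mutants and 7.08 and 7.07 in the wild types. The groups were well apart and the wild types nearly equal, with a difference of 2.89 ± 0.17 (SE) (adjusted p = 1.17e-05). The type II NAD(P)H dehydrogenases NDB4 and NDB3, which feed electrons into the chain without pumping protons, rose likewise. NDB4 had 6.73, 6.54, 6.86 and 7.09 in the double mutants and 3.97 and 4.26 in the wild types, a difference of 2.69 ± 0.17 (SE) (adjusted p = 1.2e-05). NDB3 had 7.14, 6.84, 7.65 and 7.55 in the double mutants and 4.82 and 4.64 in the wild types, a difference of 2.57 ± 0.22 (SE) (adjusted p = 0.000125). In both genes even the lowest double mutant was more than 2 log2 units above the higher wild type. The relatives NDB1 and NDC1 differed by 0.05 and 0.06, and NDB2 by 0.78 ± 0.28 (SE), none of which passed the test (adjusted p = 0.897, 0.898 and 0.161).

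The last of the 5 was AT5G51440 (HSP23.5), a small heat shock protein of mitochondria, with signals of 5.05, 4.98, 4.70 and 5.18 in the double mutants and 4.24 and 3.56 in the wild types. It rose by 1.08 ± 0.18 (SE) (adjusted p = 0.0131), although its wild types lay 0.68 apart and the lower was under the lower quartile of its array. It was also the only 1 of 8 measured small heat shock proteins that passed the test; the median of the 8 was 0.07 and 6 of them had a positive difference. The other 7, which include cytosolic members such as AT1G53540 and AT2G29500, differed by -0.25 to 0.25. The glutathione transferase GSTU25, listed for its response to mitochondrial inhibitors, was near the lower quartile of signals in all 6 arrays (3.21 to 3.47) and differed by 0.06.

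**Figure D2:**
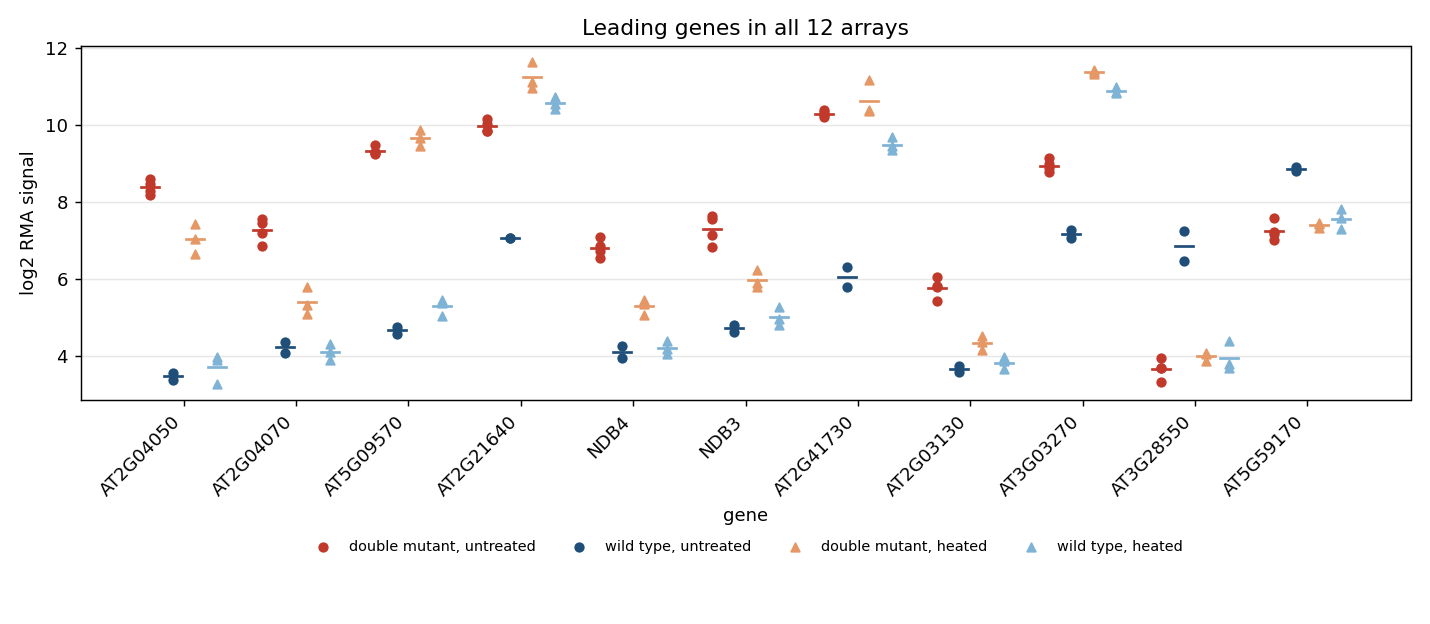
Log2 RMA signals (vertical axis) of 11 named genes (horizontal axis) in each of the 12 arrays, with circles for untreated and triangles for heated plants, red and orange for the double mutant and blue for the wild type; short bars mark group means. In untreated plants the first 9 genes lie higher in all 4 double mutants than in both wild types, and AT3G28550 and AT5G59170 lie lower.

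A pair of MATE transporters, membrane proteins that export organic compounds and drugs, stood beside the stress markers in size. AT2G04050 and AT2G04070 belong to a tandem cluster on chromosome 2 and were the 2 of 7 listed cluster members measured under a name; both rose. AT2G04050 had 8.17, 8.29, 8.46 and 8.59 in the double mutants and 3.56 and 3.40 in the wild types, and the difference of 4.90 ± 0.23 (SE) (adjusted p = 1.84e-06) was the largest of all called probe sets. AT2G04070 had 7.21, 7.55, 6.86 and 7.46 in the double mutants and 4.1 and 4.38 in the wild types, a difference of 3.03 ± 0.22 (SE) (adjusted p = 5.57e-05). The wild-type signals of AT2G04050 were below the lower quartile of their arrays (3.73 and 3.76) and were not shown to exceed background, so the size of its rise rests on a low baseline.

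Other leading rises came from genes outside the lists. Of the 23 probe sets called higher by at least 2, only 11 were assigned to 1 gene. The rest are not named here, and the largest rise among them was 4.05. AT2G41730, a protein of unknown function, had 10.20, 10.26, 10.39 and 10.33 in the double mutants and 6.31 and 5.8 in the wild types. It rose by 4.24 ± 0.22 (SE) (adjusted p = 3.91e-06), on a probe set marked as open to cross-hybridisation. AT3G03270, a universal stress protein linked to low oxygen, had 8.87, 8.79, 9.13 and 8.99 in the double mutants and 7.27 and 7.06 in the wild types and rose by 1.78 ± 0.11 (SE). The acetyltransferase-like AT2G32020 (7.13, 7.02, 7.10 and 6.62 in the double mutants, 4.59 and 4.69 in the wild types) rose by 2.32 ± 0.25 (SE). AT2G03130, related to ribosomal proteins of the L7/L12 type, had 6.06, 5.79, 5.83 and 5.42 in the double mutants and 3.60 and 3.74 in the wild types and was higher by 2.1 ± 0.16 (SE). Its wild-type signals, like those of AT2G04050, were below the lower quartile of their arrays and were not shown to exceed background. The groups were at least 1.52 apart at their nearest arrays for these 4 genes, and all 4 were called under every alternative. AT5G45510, a leucine-rich repeat protein, was less firm: its signals were 7.96, 7.59, 7.90 and 8.52 in the double mutants and 5.25 and 6.98 in the wild types, the wild types were 1.73 apart, and its difference of 1.88 ± 0.43 (SE) passed narrowly (adjusted p = 0.044) and was called in 9 of 23 fits.

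Of 16 genes of the mitochondrial genome, each taken by its probe set with the highest mean, 8 rose (against 2.23% of all probe sets), none fell and 14 had a positive difference, with a median of 0.78; under the alternatives 2 to 8 rose. The largest rises were those of ccmFC, of cytochrome c maturation, and cox1. The ccmFC probe set, shared by several transcripts, had 8.82, 8.73, 7.86 and 8.23 in the double mutants and 6.57 and 6.46 in the wild types and rose by 1.90 ± 0.22 (SE) (adjusted p = 0.00131). For cox1, the catalytic subunit of cytochrome c oxidase, the signals were 9.12, 8.82, 9.27 and 8.86 in the double mutants and 7.77 and 7.33 in the wild types, a rise of 1.47 ± 0.19 (SE) (adjusted p = 0.00331). Double mutants 1 and 2 were the highest for ccmFC. ccmFN1 rose by 1.35 ± 0.19 (SE), cox2 by 0.88 ± 0.17 (SE) and the complex I genes nad9 and nad4 by 0.90 ± 0.18 (SE) and 0.69 ± 0.12 (SE). The maturase gene matR, called in 10 of 23 fits, rose by 1.01 ± 0.23 (SE) and 1 probe set of nad5 by 1.06. A second nad5 probe set gave 0.72 and missed the threshold (adjusted p = 0.0551), and none of the 7 probe sets of nad1, a gene whose exons are spread over the genome, passed, with differences of -0.22 to 0.77. The 25S rRNA probe set of the array gave 7.99 to 9.09 in the double mutants and 7.62 and 7.85 in the wild types, and after heat 10.87 to 12.12 in the double mutants and 10.02 to 10.15 in the wild types. Its part in the results on mitochondrial transcripts, and that of the actin 3' to 5' difference, was not tested.

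A copy of mitochondrial DNA lies in chromosome 2 of the nucleus, and 34 of its genes were measured. Of these 6 rose (against 2.23% of all probe sets), none fell and 19 had a positive difference, with a median of 0.03. Under the alternatives 2 to 9 rose. All 6 were probe sets shared by several transcripts, led by AT2G07722, which had 7.85, 7.31, 7.42 and 7.38 in the double mutants and 5.10 and 4.69 in the wild types and rose by 2.59 ± 0.21 (SE) (adjusted p = 8.88e-05). AT2G07739 and AT2G07741 rose by 1.19 and 1.14, and AT2G07708, AT2G07751 and AT2G07678 by 0.90, 0.82 and 0.62. Transcripts of the nuclear copy and of the mitochondrial genome cannot be told apart on such probe sets.

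Plastid genes and nuclear genes of the energy organelles held few calls. Of 69 plastid genes 2 rose, a share near the 2.23% of all probe sets: the ATP synthase genes atpE by 0.41 ± 0.07 (SE) and atpB by 0.41 ± 0.09 (SE). None fell, and the median of 0.11 became -0.03 after centring on the reference genes, when none was called. Among 15 nuclear genes of the respiratory chain the cytochrome c gene CYTC-2 was the only one called, with 8.70, 8.75, 8.83 and 8.85 in the double mutants and 8.22 and 8.15 in the wild types and a rise of 0.60 ± 0.08 (SE) (adjusted p = 0.0046); the median was 0.15, and -0.02 after quantile normalization. The 4 measured genes of organelle DNA maintenance had positive differences of 0.18 to 0.51 and none passed: AT2G01440 (the RecG-like helicase) at 0.51 ± 0.19 (SE), AT5G15700 (an organellar RNA polymerase) at 0.41 ± 0.18 (SE), AT3G13226 at 0.26 and OSB1, a single-strand binding protein that limits mitochondrial recombination, at 0.18. None of 16 organelle RNA editing factors was called, with a median of 0.03. Of 8 nuclear photosynthesis genes RCA (Rubisco activase) rose by 0.46 ± 0.09 (SE), but under centring or quantile normalization it was not called and 1 other gene of the list was lower. Glutathione reductase GR1 was the 1 of 6 antioxidant genes that rose, by 0.70 ± 0.16 (SE), and none was called under either scaling.

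Genes of ribosome assembly rose in number. This list was drawn up after called genes had been seen, so its count is a description. Of 25 measured members 18 rose (against 2.23% of all probe sets) and none fell, 24 had a positive difference and the median was 0.64. By array, the median distance from the wild-type mean was 0.49, 0.53, 0.88 and 0.63 in double mutant replicates 1 to 4, against 0.03, 0.04, 0.03 and -0.01 over all probe sets. All 3 subunits of the PeBoW complex, which matures the large ribosomal subunit, were called. Pescadillo (AT5G14520) had 9.12, 9.07, 9.20 and 9.31 in the double mutants and 8.34 and 8.30 in the wild types. It rose by 0.86 ± 0.09 (SE) (adjusted p = 0.000466). The BOP1 homologue AT2G40360 rose by 1.34 ± 0.29 (SE) and the WDR12 homologue AT5G15550 by 0.57 ± 0.10 (SE). These 2 were called in 11 and 16 of 23 fits. The Pescadillo groups were tight and 0.73 apart at their nearest arrays.

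Among factors of rRNA modification, the largest rise was that of AT4G25730, a methyltransferase of the FtsJ type whose yeast relative is Spb1, with 6.33, 6.09, 7.15 and 7.33 in the double mutants and 5.06 and 4.99 in the wild types. It rose by 1.70 ± 0.33 (SE) (adjusted p = 0.0245), and replicates 3 and 4 were about 1 log2 unit above replicates 1 and 2. AT3G03920 (GAR1, a protein of pseudouridylation particles) had 9.82, 9.72, 9.88 and 9.57 in the double mutants and 8.90 and 9.02 in the wild types and rose by 0.79 ± 0.10 (SE) (adjusted p = 0.0026). The DEAD-box RNA helicase PRH75 had 9.11, 8.95, 9.10 and 9.17 in the double mutants and 8.25 and 8.16 in the wild types and rose by 0.88 ± 0.11 (SE) (adjusted p = 0.0026). For GAR1 and PRH75 all 4 double mutants were alike, and these 2 genes and Pescadillo were the members called under every alternative. IMP4 and AT5G15750 (IMP3), partners in the processing of the small subunit rRNA, both rose by 0.52. They were called in 12 and 5 of 23 fits. The large subunits of RNA polymerase I, NRPA1 and NRPA2, differed by 0.92 ± 0.31 (SE) and 0.84 ± 0.32 (SE) and did not pass (adjusted p = 0.139 and 0.185). The same holds for AT1G52930, AT5G60990, AT3G15460, DIM1A and AT1G77030, which differed by -0.05 to 0.77. With centring on the reference genes or quantile normalization 5 of the 25 were called, without replicates 3 and 4 only 3, and the median stayed between 0.49 and 0.76 in these 3 fits and in that without replicates 1 and 2. The 25S rRNA signal was 8.98 to 9.09 in double mutant replicates 2 to 4. In replicate 1 it was 7.99, close to the wild types at 7.62 and 7.85. Its part in the result was not tested.

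The 4 measured AAA-type ATPases related to animal ATAD3 all rose, against 2.23% of all probe sets. In animals ATAD3 is a protein of the mitochondrial inner membrane. This family too was listed after its calls were seen. AT4G36580 had 5.63, 5.51, 5.63 and 5.91 in the double mutants and 4.03 and 4.37 in the wild types and AT3G03060 had 5.92, 5.89, 6.20 and 6.29 in the double mutants and 4.79 and 4.72 in the wild types. Both were called under every alternative, with differences of 1.47 ± 0.18 (SE) and 1.32 ± 0.13 (SE). AT2G18330 and AT5G16930 rose by 1.14 ± 0.24 (SE) and 1.12 ± 0.21 (SE), but were called in 12 of 23 and 15 of 22 fits. Only 2 of the 4 were called with centring on the reference genes, with only the 6 untreated arrays or without double mutant replicates 3 and 4, and 3 after quantile normalization.

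Further single genes were named after their values were seen, with no list or count behind them. The pentatricopeptide repeat protein PPR596 rose by 1.06 (called in 19 of 23 fits) and the polynucleotide phosphorylase AT5G14580 by 0.81 (12 of 22). The elongation factor AT4G02930 rose by 0.65 and the ribosomal proteins AT2G20060 and AT1G07830 by 0.79 and 0.74, each called in 15 of 23 fits, while another, AT5G64650, at 0.52, was called in 4 of 23 (adjusted p = 0.0472). Both loci of IMP dehydrogenase, the first enzyme of guanine nucleotide synthesis, rose (AT1G16350 by 0.65 and AT1G79470 by 0.62, each called in 14 of 23 fits). The Zuotin-related cochaperone AT5G06110 rose by 1.00 (20 of 23), and its relative AT3G11450, at 1.11, passed narrowly (adjusted p = 0.0488) and was called in 8 of 23 fits. The pyruvate kinase AT5G56350 rose by 1.45 ± 0.24 (SE), the phosphofructokinase subunit AT1G76550 by 0.88 and triose phosphate isomerase TPI by 0.54, each called in 18 of 23 fits.

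**Figure D3:**
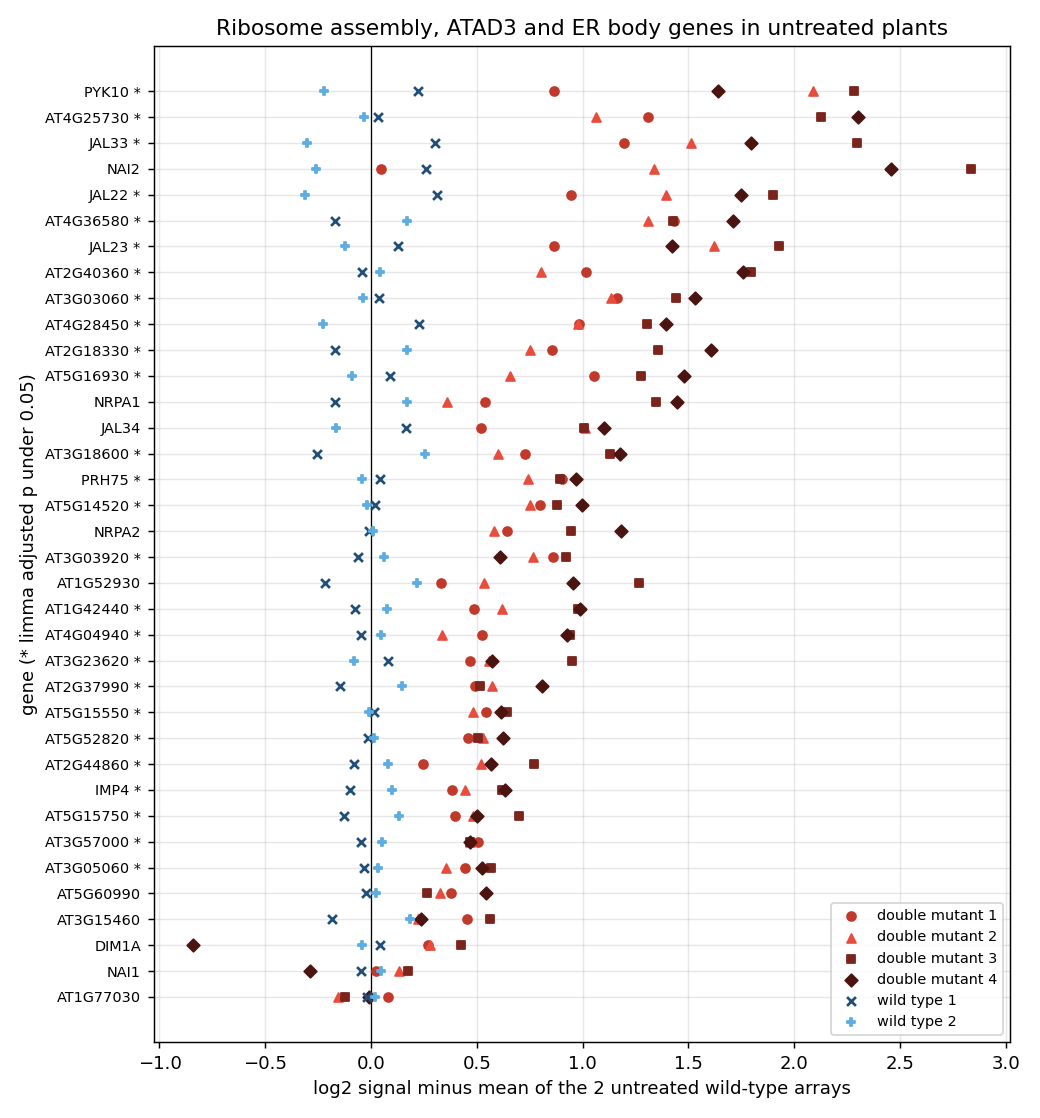
Log2 signal of each untreated array minus the mean of the untreated wild types (horizontal axis) for the measured genes of ribosome assembly, of the ATAD3 family and of the ER body list (vertical axis), with warm symbols for the 4 double mutants and blue symbols for the 2 wild types; asterisks mark genes called by limma. Double mutants 3 and 4 lie farthest to the right for most ribosome assembly genes, and DIM1A lies left of the wild types in double mutant 4 alone.

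ER bodies are stores of beta-glucosidases in Brassicaceae, and jacalin-related lectins (JAL) bind these enzymes when cells break. Of 7 measured genes of a list drawn up after the calls, 4 rose (against 2.23% of all probe sets): the beta-glucosidase PYK10 and the lectins JAL33, JAL22 and JAL23. PYK10 had 7.47, 8.69, 8.88 and 8.24 in the double mutants and 6.82 and 6.38 in the wild types and rose by 1.72 ± 0.33 (SE) (adjusted p = 0.0234). JAL33 had 6.74, 7.06, 7.84 and 7.34 in the double mutants and 5.85 and 5.24 in the wild types and rose by 1.70 ± 0.29 (SE) (adjusted p = 0.0156). In both, double mutant 1 was the lowest of its group and nearest to the wild types. JAL22 and JAL23 rose by 1.5 ± 0.28 (SE) and 1.46 ± 0.31 (SE). NAI2, which organises ER bodies, had 4.24, 5.53, 7.03 and 6.65 in the double mutants and 4.45 and 3.93 in the wild types; its groups overlapped and it was not called (adjusted p = 0.177). JAL34 differed by 0.91 ± 0.22 (SE) (adjusted p = 0.0578), and NAI1, the transcription factor behind ER bodies in seedlings, by 0.01. None of the 4 rises was called when only the 6 untreated arrays were fitted. PYK10 is best known from roots and was the only 1 of 6 root markers measured under a name; the share of other organs in the samples was not tested.

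Of 4 measured genes of flavonoid and anthocyanin synthesis 2 rose (against 2.23% of all probe sets) and all 4 had positive differences, with a median of 0.94. DFR, dihydroflavonol reductase, had 8.06, 9.05, 9.58 and 8.58 in the double mutants and 6.67 and 6.78 in the wild types and rose by 2.09 ± 0.32 (SE) (adjusted p = 0.0075). AT4G14090, an anthocyanidin glucosyltransferase, had 5.67, 6.24, 6.18 and 5.33 in the double mutants and 4.65 and 4.66 in the wild types and rose by 1.2 ± 0.22 (SE) (adjusted p = 0.0192). In both genes the double mutants spread over about 1 log2 unit or more. Neither was called with only the 6 untreated arrays or when either wild type was left out. UF3GT and UGT78D2, glycosyltransferases of the same pathway, differed by 0.68 ± 0.29 (SE) and 0.51 ± 0.18 (SE) and did not pass (adjusted p = 0.247 and 0.165). The defensin PDF1.2 had 8.39, 8.67, 11.66 and 10.99 in the double mutants and 5.92 and 7.68 in the wild types; with wild types 1.76 apart, its difference of 3.13 ± 1.32 (SE) was not called (adjusted p = 0.234).

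Among the 106 lower probe sets the largest fall was that of AT3G28550, an extensin-like protein rich in proline, with 3.34, 3.71, 3.96 and 3.71 in the double mutants and 7.25 and 6.48 in the wild types. Its double mutant signals were near the lower quartile of their arrays, 3.67 to 3.72, so that the difference of -3.18 ± 0.24 (SE) (adjusted p = 5.89e-05) ends near the floor of the array. Of 10 measured extensins and extensin-like genes 2 fell (against 0.466% of all probe sets) and none rose, and the median was -0.41. The other call, AT1G23720, had 4.33, 4.06, 4.04 and 4.17 in the double mutants and 4.54 and 5.01 in the wild types on a probe set open to cross-hybridisation and fell by 0.63 on the log2 scale (adjusted p = 0.0326). The remaining 8 differed by -0.63 to -0.01, and 4 of the list are probe sets open to cross-hybridisation, so their signals may be shared.

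AT5G59170, a proline-rich protein of the extensin type outside that list, had 7.18, 7.23, 7.59 and 7.03 in the double mutants and 8.91 and 8.79 in the wild types, a difference of -1.60 ± 0.16 (SE) (adjusted p = 0.000485). It was called under every alternative. AT5G33370, a GDSL lipase of the cutin synthase family, had 5.32, 4.25, 3.97 and 3.71 in the double mutants and 6.30 and 6.20 in the wild types, a difference of -1.94 ± 0.36 (SE) (adjusted p = 0.021). Double mutant 1 was the nearest to the wild types. For the pectin methylesterase PME61 it was again the nearest, with 6.40, 5.49, 5.19 and 5.42 in the double mutants and 7.06 and 7.01 in the wild types and a difference of -1.41 ± 0.30 (SE). PME61 was called in 12 of 23 fits. Named after their values were seen, the pectin methylesterase AT1G23200 and the inhibitor-like AT1G23205 and AT3G47380 differed by -0.65, -0.97 and -0.64. EXPB1 was the only 1 of 17 listed expansins called, against 0.466% of all probe sets called lower. It had 5.72, 5.59, 5.59 and 5.25 in the double mutants and 6.24 and 6.63 in the wild types. Its difference was -0.90 ± 0.14 (SE) (adjusted p = 0.00949). The expansin-like EXLB1, outside that list and named after its values were seen, differed by -0.91. It passed narrowly (adjusted p = 0.0472) and was called in 9 of 23 fits. No xyloglucan endotransglucosylase of 10, no tubulin of 7 and none of 8 cellulose synthases and arabinogalactan or fasciclin-like proteins was called.

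The other large falls had mixed roles. AT1G59930 differed by -1.46 ± 0.17 (SE), and AT3G46880, whose wild types were 0.83 apart, by -1.34 ± 0.26 (SE). The leucine-rich repeat protein AT5G12940 differed by -1.31 ± 0.26 (SE), AT4G29030 by -1.24 ± 0.27 (SE) and the fatty acid desaturase-like AT1G06100 by -1.23 ± 0.18 (SE). AT5G54530, AT4G33960, AT5G01080 and the blue copper protein AT1G72230 differed by -1.18, -1.14, -1.01 and -1.0. They were called in 15 of 23, 11 of 23, 20 of 22 and 14 of 23 fits. TRY, a small MYB protein that restrains trichome formation, had 4.74, 4.67, 4.85 and 4.14 in the double mutants and 5.21 and 5.99 in the wild types and a difference of -1.0 ± 0.23 (SE) (adjusted p = 0.0458). TRY was called in 7 of 22 fits. Of 16 SWEET sugar transporters 1 rose and 1 fell. The vacuolar SWEET2 had 6.16, 6.78, 6.29 and 5.94 in the double mutants and 7.36 and 7.41 in the wild types, a difference of -1.09 ± 0.24 (SE), while SWEET11, which exports sucrose to the phloem, had 10.32, 10.19, 10.64 and 10.69 in the double mutants and 9.86 and 9.83 in the wild types, a difference of 0.62 ± 0.14 (SE). The SWEET11 call was lost under both scalings. SWEET2 and SWEET11 were called in 12 and 8 of 23 fits. SAG29 (SWEET15), a senescence marker, differed by -1.57 ± 0.42 (SE) with wild types 1.91 apart and was not called (adjusted p = 0.077).

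**Figure D4:**
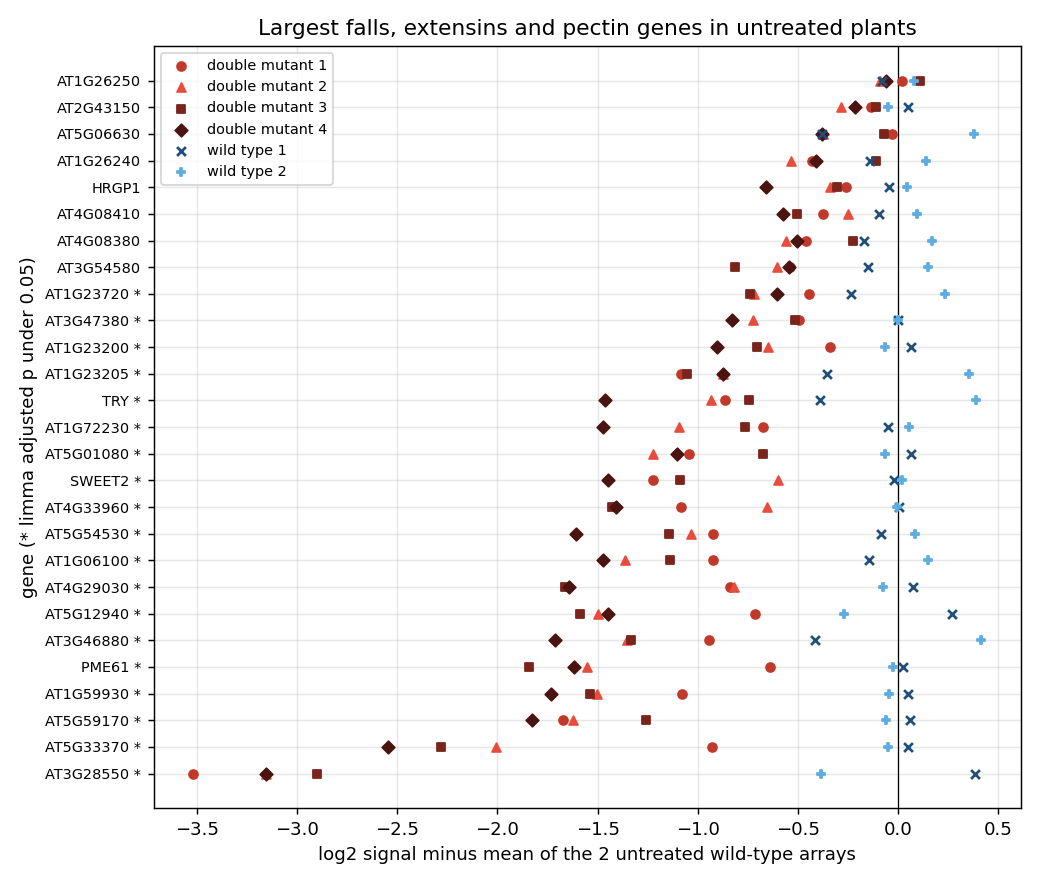
Log2 signal of each untreated array minus the mean of the untreated wild types (horizontal axis) for the 15 largest falls, the measured extensins and the pectin genes named in the text (vertical axis), with warm symbols for the 4 double mutants and blue symbols for the 2 wild types; asterisks mark genes called by limma. AT3G28550 lies about 3 log2 units below the wild types in every double mutant, and double mutant 1 lies nearest to the wild types for AT5G33370, PME61 and AT5G12940.

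With 2.69% of all probe sets called, a family of the sizes measured here may hold no call without standing apart. No call was made among 51 UDP-glycosyltransferases found by gene symbol (median 0.04). That list did not hold the anthocyanidin glucosyltransferase AT4G14090, which was called, so the whole family was not without a call. None was called among 28 cytochrome P450 enzymes (-0.05), 12 auxin response and transport genes (-0.05) and 11 tau glutathione transferases (-0.06). The same held for 11 autophagy genes (0.07), 10 bZIP and bHLH factors (-0.02), 8 calcium sensors and kinases (-0.01) and 7 WRKY factors (-0.05). A gene missing the threshold here was not shown to be equal in both genotypes, since the wild type had 2 arrays. The reference genes AT4G33380 and PEX4 (UBC21) differed by 0.03 and -0.08, and AT2G28390 (SAND) and AT4G34270 (TIP41-like) by 0.31 ± 0.10 (SE) and 0.29 ± 0.10 (SE), none of them called.

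The same genotype difference was measured in 6 other arrays, those of the heated plants. Both comparisons drew their spread from the same fit of all 12 arrays, so their calls are not independent. In them 113 probe sets were higher (0.497%) and 91 lower (0.4%) in the double mutant than in the wild type. Of the 507 probe sets higher in untreated double mutants 53 (10.5%) were also called higher after heat and 2 were called lower, and of the 106 lower ones 6 (5.66%) were called lower again. Of all 204 heated calls, 28.9% were called in the same direction in untreated plants. The sign was the same after heat for 83.8% of the higher and 76.4% of the lower ones, against 59.0% of the probe sets not called. Heated differences were smaller, with medians of 0.21 and -0.12. These probe sets were chosen by their untreated difference, so a smaller one in other arrays could follow from that choice alone. Heated double mutant replicate 3 stood apart, with an array weight of 0.476, the lowest of the 12, and without it the heated comparison had 1061 calls (4.66%) in place of 204; 79 of the higher (against 2.26% of all probe sets) and 11 of the lower transcripts (2.41%) were then called again. Of the 60 probe sets called under every alternative, 29 were called after heat in the same direction and none in the other.

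AT5G09570 kept nearly all of its difference after heat, with 9.45, 9.66 and 9.88 in heated double mutants and 5.39, 5.06 and 5.46 in heated wild types and a difference of 4.36 ± 0.14 (SE) (adjusted p = 4.75e-08). AT2G04050 had 6.66, 7.05 and 7.43 in heated double mutants and 3.90, 3.98 and 3.29 in heated wild types, a difference of 3.32 ± 0.21 (SE) (adjusted p = 6.63e-05). In either gene the heated groups were at least 2.68 apart. NDB4 differed by 1.07 ± 0.16 (SE) (adjusted p = 0.0126), AT2G04070 by 1.29 ± 0.21 (SE) and cox1 by 1.19 ± 0.18 (SE). UPOX had 11.11, 10.95 and 11.63 in heated double mutants and 10.41, 10.55 and 10.74 in heated wild types, and its difference of 0.67 ± 0.16 (SE) was not called (adjusted p = 0.0938). None of the 25 ribosome assembly genes was called after heat (median 0.11). That list was drawn up after the untreated calls were seen, so a smaller difference there could follow from the choice too. No flavonoid gene of 4 (0.17) and no extensin of 10 (-0.10) was called. Of 16 genes of the mitochondrial genome 4 were called higher (0.40), against 0.497% of all probe sets. Of the 34 genes of the chromosome 2 insertion 11 were called higher after heat, against 0.497% of all probe sets, with a median of 0.40, and 15 without heated double mutant replicate 3; 6 had been called in untreated plants.

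**Figure D5:**
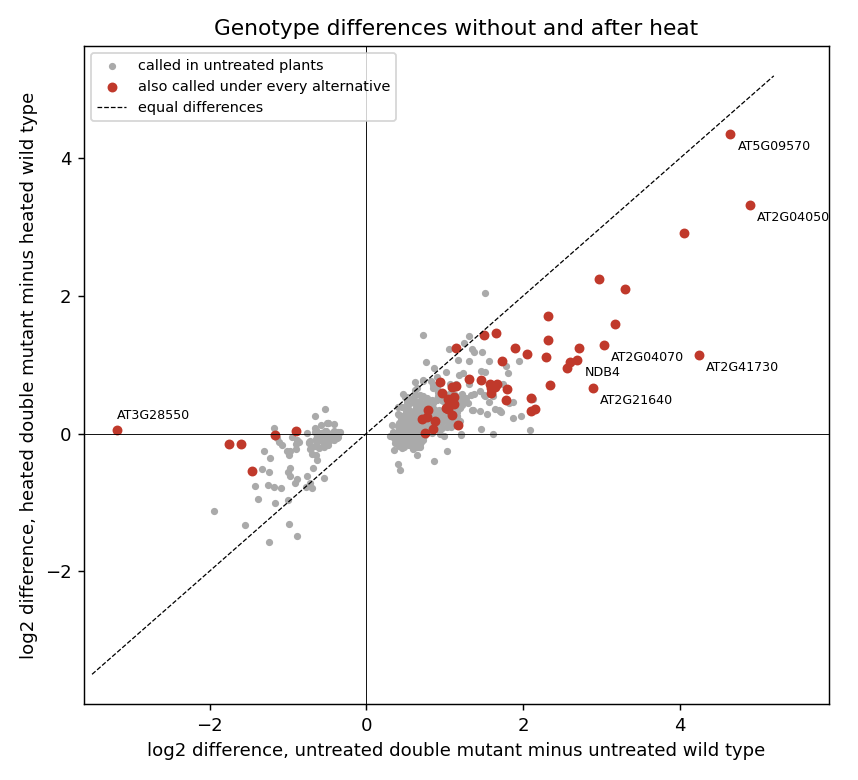
Genotype difference in heated plants (vertical axis) against that in untreated plants (horizontal axis), both as double mutant minus wild type on the log2 scale, for the 613 probe sets called in untreated plants; red points passed under every alternative, and the dashed line marks equal differences. AT5G09570 lies near the line at 4.65 and 4.36, AT2G41730 well below it, and AT3G28550 at -3.18 and 0.05.

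The difference between the genotype differences was tested directly. It was called for 17 probe sets (0.0747%), with 5 changes upward (0.022%) and 12 downward (0.0528%). Of the 17, 15 were also called in untreated plants, and for 13 of them the untreated difference was the larger in size. A gene name was assigned to 10. AT2G41730 had 10.38, 10.35 and 11.17 in heated double mutants and 9.45, 9.35 and 9.68 in heated wild types, and the genotype difference changed by -3.10 ± 0.30 (SE) (heated minus untreated, adjusted p = 0.00857). The change was -2.23 ± 0.24 (SE) for UPOX (adjusted p = 0.00857), -1.30 ± 0.15 (SE) for AT3G03270 (adjusted p = 0.0139), -1.62 ± 0.23 (SE) for NDB4 (adjusted p = 0.0383) and -1.58 ± 0.23 (SE) for AT2G03130 (adjusted p = 0.0408). For AT2G41730, UPOX and AT3G03270 the heated wild types, at 9.35 or above, approached the heated double mutants, whereas for NDB4 and AT2G03130 the heated double mutants were lower than the untreated ones. Pescadillo (AT5G14520) had 9.61, 9.67 and 9.55 in heated double mutants and 9.56, 9.52 and 9.54 in heated wild types, a change of -0.79 ± 0.12 (SE) (adjusted p = 0.0449).

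AT3G28550 had 3.88, 4.08 and 4.07 in heated double mutants and 3.79, 3.70 and 4.39 in heated wild types. Both heated groups lay near the level of the untreated double mutants, and the genotype difference changed by 3.23 ± 0.33 (SE) (adjusted p = 0.00857). AT3G61840, lower in untreated double mutants (3.85, 3.55, 3.52 and 3.54 in the double mutants and 4.57 and 4.46 in the wild types), changed by 0.94 ± 0.14 (SE) (adjusted p = 0.0449). The CCCH-type zinc finger protein AT3G51950 and the C2-domain protein AT3G57880 were higher in untreated double mutants by 0.43 and 0.41 but lower after heat, by -0.53 ± 0.09 (SE) and -0.44 ± 0.09 (SE), and these were the 2 transcripts called in opposite directions. Calls of the difference between the genotype differences numbered from 1 to 66 when single arrays were left out.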

How the data were processed

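Above-ground parts of double mutant and wild-type plants were measured on 12 Affymetrix arrays, of which 4 and 2 were untreated. The authors deposited log2 signals per probe set made with RMA of the affy package, per the submitters' processing notes; the versions and the genome build were not given in the sources used here. RMA corrects background, normalizes between arrays and summarises probes, so a change shared by most transcripts would be reduced. The table gives no detection calls, so low signals cannot be told from background.

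Of 22810 probe sets 64 controls were left out. The other 22746 comprised 13513 with 1 gene, 503 with several genes and 8730 with no gene in the annotation, and 13436 were matched to RefSeq of TAIR10.1 by gene number and 23 mitochondrial ones by symbol. Roles of genes come from general knowledge, since the annotation gives no products.

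A limma model with 1 mean per group was fitted to all 12 arrays, so that the spread was shared between groups, with empirical Bayes moderation (8 residual and 3.22 prior degrees of freedom). Tests were two-sided, p was adjusted by Benjamini-Hochberg over all probe sets, and calls used 0.05. Errors are moderated SE. The untreated and heated genotype differences and the difference between them were tested, and the procedure was tested on simulated data. No label says that a replicate number marks a batch shared across groups. Residual correlations ran from -0.348 to 0.265 over 15 same-numbered pairs. Differently numbered pairs were not set beside them, so these values cannot exclude a shared batch.

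Named genes are, among called genes without overlap between groups, those with the 15 largest rises and the 15 largest falls, called members of gene lists, measured members of the lists of mitochondrial stress, MATE transporters, organelle DNA maintenance and reference genes, and genes with a called difference of differences; others are said to be named after their values were seen. The comparison, members and lists were chosen with earlier results of these data known, and a gene with several probe sets counts by the one with the highest mean. Lists for mitochondrial import, ABC transporters, MYB, ERF and heat shock factors, DNA damage, jasmonate, flowering, pollen, seed and vascular markers held no gene measured under a name. Alternatives were reference-gene centring, quantile normalization, 2 filters on low means, a fit of the compared arrays alone, a replicate block, array weights, trend with robust moderation, a size threshold of 1 and leaving out arrays. The fits used limma 3.58.1 in R 4.3.3; tables and plots used pandas 2.3.3, matplotlib 3.10.9 and NumPy 2.4.6 under Python 3.11.15.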

Additional observations from a re-analysis of the deposited data

Results flagged for a closer look

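The genotype difference after heat departed from that in untreated plants for 10 named genes, by the direct test of the difference of differences (heated minus untreated, limma). It changed by -3.10 for AT2G41730, by -2.23 for AT2G21640 (UPOX), by -1.62 for NDB4, by -1.58 for AT2G03130 and by -1.30 for AT3G03270. It changed by -0.79 for AT5G14520 (Pescadillo), by -0.96 for AT3G51950 and by -0.85 for AT3G57880. It changed by 3.23 for AT3G28550 and by 0.94 for AT3G61840, both lower in untreated double mutants.

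In 5 of 102 groups of 4 untreated double mutants that were checked for a lone outlying array, 1 array lay far from the others by Dixon's criterion; chance alone flags about 1 group in 20. Replicate 4 stood out for AT5G09570 (9.49, above the other 3) and AT5G64650 (7.18, below them). Replicate 1 stood out above the others for AT3G57000 (8.00), AT3G61840 (3.85) and AT5G12940 (6.04).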

How the results depend on the processing

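Calls in untreated plants numbered 613 and ran from 113 to 571 when single untreated arrays were left out and from 344 to 862 when single heated arrays were. They numbered 275 after quantile normalization, 109 with only the 6 untreated arrays, 109 with a replicate block (91 of the 507 higher and 15 of the 106 lower ones among them), 159 with a size of at least 1, 1469 without double mutant replicates 1 and 2 and 132 without replicates 3 and 4. The heated comparison had 204 calls, 102 with a replicate block, 683 with array weights and 38 to 1061 without single arrays. The difference of differences had 17 calls, 9 after quantile normalization, 7 among probe sets above the median signal, 5 with a replicate block, 34 with array weights and 1 to 66 without single arrays. No named gene that was called changed sign under any alternative. Under the replicate block the result for named genes stayed the same in 40 cases and became weaker in 70. No label says that the replicate numbers mark a shared batch, and whether they do was not settled. The causes were not tested, and where arrays were left out the number of arrays fell as well.

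By list, 8 mitochondrial genes became 3 after quantile normalization and 5 with reference-gene centring, and 6 genes of the chromosome 2 insertion became 2 and 3. Extensins had 5 falls after centring. Averaging all probe sets of a gene kept the main counts of all lists within a factor of 1.5. The planned search for promoter motifs was not run, because no promoter sequence was at hand. With 2 wild-type arrays and no detection calls, small differences and low signals could not be resolved.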

Other observations

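Outside the lists and the leading genes, 11 more genes were called under every alternative, all of them higher in untreated double mutants; they were named after their values were seen. The dioxygenase-like AT5G43450 was higher by 1.67, the pentatricopeptide repeat proteins AT2G20720 and AT4G35850 by 1.66 and 1.02, AT1G24095 by 1.59 and AT3G49320 by 1.58, on the log2 scale. The others were AT2G02160 (1.12), AT5G60250 (1.06), AT2G36930 (1.06), AT3G07750 (1.05), AT4G31810 (0.95) and AT1G14300 (0.70). After heat 5 of the 11 were called again in the same direction: AT5G43450, AT2G20720, AT3G49320, AT5G60250 and AT4G31810, with differences of 0.72, 1.46, 0.72, 0.49 and 0.75.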
